A study of Mus musculus with 4 samples.

Results

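The 10 imprinted growth genes and noncoding RNAs described here are *Igf2*, *H19*, *Dlk1*, *Meg3*, *Rian*, *Mirg*, *Peg3*, *Peg10*, *Grb10* and *Cdkn1c*, chosen by name and all found among the 56748 gene IDs of the count files. RNA came from C2C12, an established mouse myoblast line labelled as wild type, transfected either with a mixture of 3 shRNAs against *Hnrnpl* (knockdown) or with a scrambled shRNA (scrambled). hnRNP L, the product of *Hnrnpl*, is an RNA-binding protein that regulates splicing. The plasmids of both groups also carried an eGFP reporter, cells of both groups were grown in serum-containing growth medium and selected with puromycin, and the libraries of a group are separate passages of a single stable line, so that a group stands for 1 selected line. Each group had 2 libraries, sequenced by nanopore direct RNA sequencing, in which single polyadenylated RNA molecules are read without conversion to cDNA. The labels number the batches 1 and 2, with 1 library of each group in each.

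Imprinted genes are expressed mainly from the chromosome inherited from 1 parent, and most lie in clusters under a shared control region whose DNA methylation differs between the parental copies. *Igf2* (insulin-like growth factor 2, paternally expressed) and *H19* (a maternally expressed noncoding RNA) share enhancers on distal chromosome 7, where the cyclin-dependent kinase inhibitor *Cdkn1c* is also found, in a neighbouring domain. *Dlk1*, which encodes a transmembrane protein related to the Notch ligands, and the maternally expressed noncoding RNAs *Meg3*, *Rian* and *Mirg* share a cluster on chromosome 12. *Peg3* (a zinc finger protein) and *Peg10* (a protein derived from a retrotransposon and needed for the placenta) are paternally expressed, and *Grb10* encodes an adaptor that dampens insulin and IGF1 receptor signalling. In muscle, *Igf2* and *H19* are best known from embryonic muscle and differentiating myoblasts. The counts used here do not separate the parental alleles, so that all values are sums over both copies.

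*Peg10* and *Peg3* each start a short distance from a gene on the opposite strand, *Sgce* and *Usp29*, and the bases between the 2 annotated starts are shown because each pair shares a cluster, of which only *Peg10* and *Sgce* had reads enough to be compared. Both are read from GRCm39 on the plus strand, 5′ to 3′, with each CG dinucleotide, the unit of DNA methylation, in capitals. The *Sgce*-*Peg10* interval (chr6:4747208-4747305, 98 bases) and the *Peg3*-*Usp29* interval (chr7:6733469-6733576, 108 bases) read
Sgce-Peg10: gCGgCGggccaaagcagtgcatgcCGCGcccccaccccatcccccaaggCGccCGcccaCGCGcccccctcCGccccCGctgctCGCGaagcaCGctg
Peg3-Usp29: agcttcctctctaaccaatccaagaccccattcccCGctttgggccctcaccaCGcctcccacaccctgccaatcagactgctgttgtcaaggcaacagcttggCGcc

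The *Sgce*-*Peg10* interval held 13 CG dinucleotides and 79.6% G or C. Of 21630 windows of the same length directly upstream of protein-coding genes, 5.41% held at least as many, and the median window held 3. The *Peg3*-*Usp29* interval held 3 CG dinucleotides, the median number for windows of its length, and 59.3% G or C. CG reads the same on both strands, so that both strands are covered by these counts. DNA methylation was not measured in these cells.

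*H19* was also described by sequence, because its exons hold the hairpin of the microRNA miR-675 (the gene *Mir675*, chr7:142130801-142130884, minus strand, 1539 bases from the annotated 3′ end of *H19*). The mature microRNAs, from RefSeq with the GRCm38.p6 build, are shown with the seed, bases 2 to 8, in capitals and read
mmu-miR-675-5p: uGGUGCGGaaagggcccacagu
mmu-miR-675-3p: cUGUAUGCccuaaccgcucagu

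The position of the hairpin bears on the counts. HTSeq, the counting program, sets aside as ambiguous a read that overlaps more than 1 gene in its usual mode, and 16.0% to 16.5% of the reads of a library were set aside in this way. Annotated GENCODE vM39 transcripts of each member were mapped to GRCm39 to see which would touch only their own gene. Of 21 *H19* transcripts, 16 overlapped another gene on the same strand, and *Mir675* shares 84 bases with *H19*. All 14 *Igf2* transcripts overlapped another gene, since 58.4% of the exonic bases of *Igf2* are shared with *Gm49394*, a gene on the same strand which itself had 0 reads in every library. In the chromosome 12 cluster, 78 of 85 *Meg3* transcripts, 51 of 70 *Rian* transcripts and 22 of 34 *Mirg* transcripts overlapped another gene, mostly the small RNA genes within them. All transcripts of *Dlk1* (13), *Grb10* (24), *Cdkn1c* (10), *Peg3* (12) and *Peg10* (2) touched only their own gene when strand was used. Without strand, 9 of the 10 *Cdkn1c* transcripts also touched *Gm44732* on the opposite strand. The sources used here give neither the annotation release nor the strand or overlap setting of the counting, so that the number of reads set aside for *Igf2*, *H19*, *Meg3*, *Rian* and *Mirg* is not known.

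**Figure D1:**
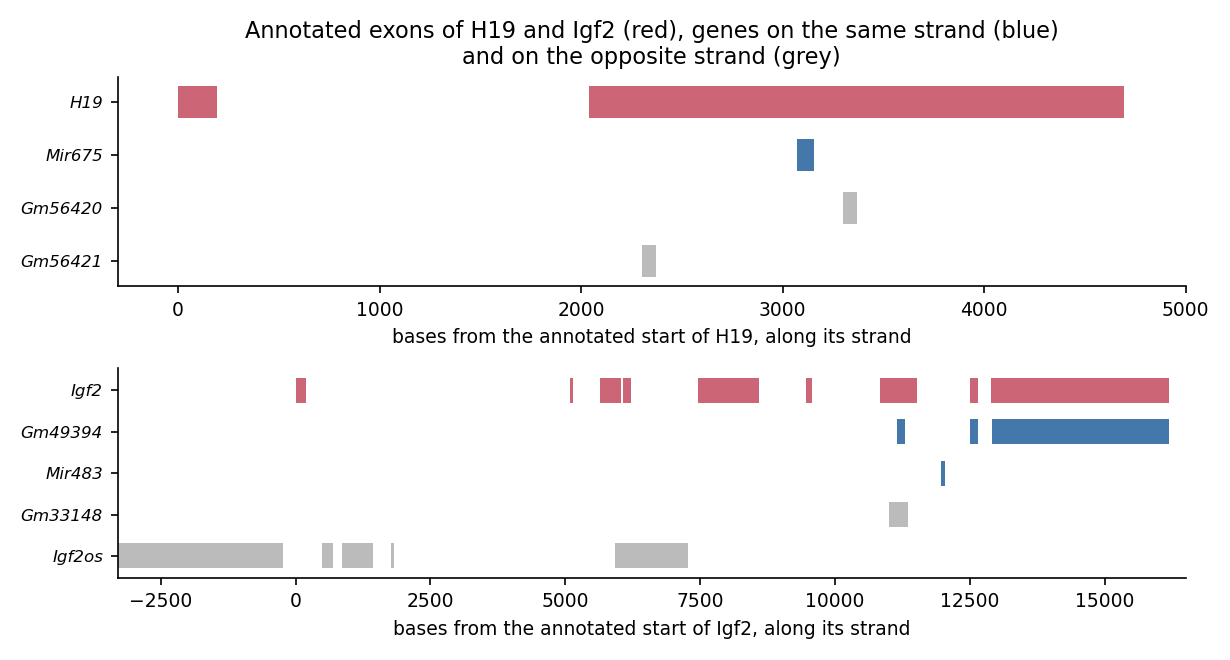
Map of annotated exons (GENCODE vM39) along H19 (top) and Igf2 (bottom), with the distance from the annotated start of the gene in bases on the x axis and 1 gene per row. Red bars are exons of H19 or Igf2, blue bars exons of genes on the same strand and grey bars exons on the opposite strand. Exons of all transcripts of a gene are drawn together, so that introns retained in some transcripts look exonic. Mir675 lies within the exons of H19, with further exons downstream of it, and Gm49394 covers the last exon of Igf2.

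Libraries held 1387523 and 1676911 counted reads (scrambled 1 and 2) and 1374637 and 1229424 (knockdown 1 and 2). The target itself, *Hnrnpl*, had 358 and 656 reads in the scrambled libraries and 242 and 258 in the knockdown libraries, a log2 fold change (knockdown over scrambled) of -0.78 ± 0.18 (SE; adjusted p = 0.0112, edgeR). The knockdown libraries were below the scrambled ones, but *Hnrnpl* was not called without scrambled 2 (-0.47, adjusted p = 0.164) or without knockdown 1 (-0.63, adjusted p = 0.283), nor with parametric DESeq2 fits (adjusted p = 0.0585 and 0.0616). The myoblast label was checked against marker genes. Of 7 myoblast markers, 6 had reads and their summed level was 647 to 790 CPM (reads per 1000000 counted reads) in the scrambled and 364 to 445 CPM in the knockdown libraries. *Des*, *Cdh15* and *Chrna1* (3 of 4 tested) were called lower in the knockdown in edgeR, of which *Des* (log2 fold change -0.56, adjusted p = 0.0308) lost its call with the replicate number as a block (adjusted p = 0.0526), with parametric DESeq2 fits, and without scrambled 2, knockdown 1 or knockdown 2. *Myf5* was not called (log2 fold change -0.16, adjusted p = 0.615), *Myod1* had a single read, in scrambled 2, and *Pax7* had 0. Of 9 markers of differentiated muscle, 2 had reads, with a summed level of 7.16 to 11.5 CPM in the scrambled and 5.09 to 7.32 CPM in the knockdown libraries, and *Myog* and *Myh3* were at 0. The 6 fibroblast markers summed to 6.49 and 6.56 CPM in the scrambled and 3.64 and 2.44 CPM in the knockdown libraries, with *Thy1*, *Dpt* and *Tcf21* at 0. The 5 immune markers summed to 21.6 to 25.0 CPM in the scrambled and 27.6 to 40.7 CPM in the knockdown libraries, with *Ptprc* and *Adgre1* at 0, and *Cd14* gave 144 of their reads. The 6 adipocyte markers summed to 25.2 and 28.6 CPM in the scrambled and 41.5 to 55.3 CPM in the knockdown libraries. Among them *Pparg* was called higher (log2 fold change 1.42, adjusted p = 0.00271, or 0.150 without knockdown 1 and 0.0993 and 0.102 with parametric DESeq2 fits), *Cebpa* was below the count limit of a call (log2 fold change -2.12, adjusted p = 0.0316, mean normalized count 7.42), and *Plin1* was at 0. These differences stand beside every result on the members, and their part in them was not tested. In bulk RNA, fewer cells of a type and less RNA per cell cannot be told apart.

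Of the 10 members, 4 had any read. *Peg10* was higher in the knockdown, *Peg3* was lower, and *H19* differed more between the knockdown libraries than between the groups. *Mirg* had 1 read, in knockdown 2. *Igf2*, *Dlk1*, *Meg3*, *Rian*, *Grb10* and *Cdkn1c* had 0 reads in all 4 libraries. The 3 members with enough reads to be tested were compared with edgeR's quasi-likelihood test, with p-values adjusted over all 8670 genes tested. A gene was called where the adjusted p was under 0.05, the log2 fold change was over 0.5 in size and the mean normalized count was over 10. By this rule 2 of the 3 were called, 1 higher and 1 lower, where 5.55% of all genes tested were called (481 genes), 2.33% higher and 3.22% lower. The members were chosen with earlier results of these data known, and *Peg3* passed the read filter on its scrambled counts alone. Setting their share beside that of all genes is therefore no test of the members. An adjusted p under 0.05 alone was reached by 2 of 3 members and by 5.95% of all genes tested, and an unadjusted p under 0.05 by 21.8% (1894 genes), against which the counts of unadjusted p-values given for lists and windows stand. The replicates are passages of 1 line in each group, so that the p-values measure the spread between passages.

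**Figure D2:**
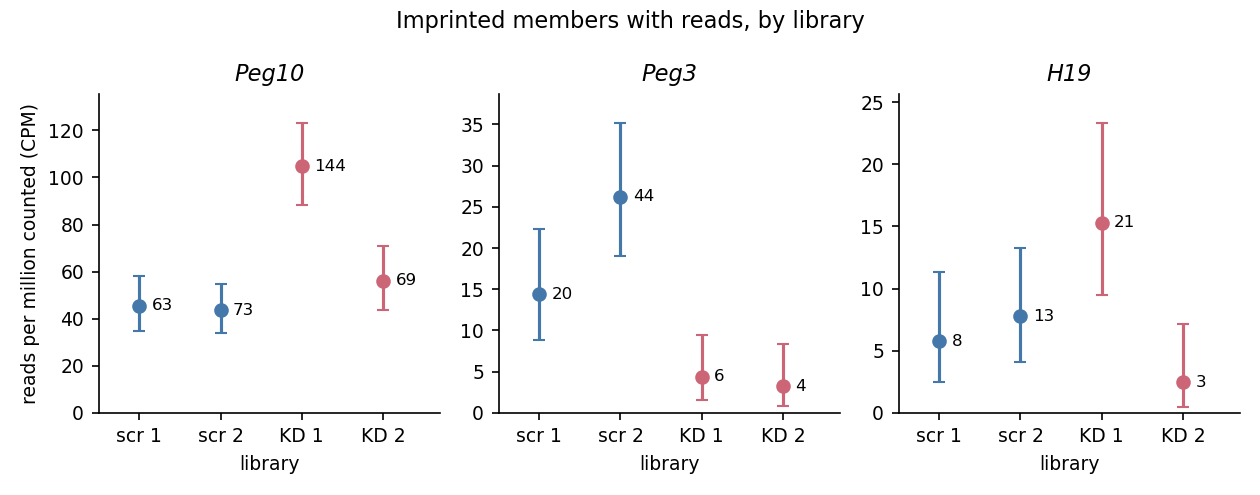
Level of Peg10, Peg3 and H19 in each library, in reads per 1000000 counted reads (CPM) on the y axis, with the number of reads beside each point and bars for the 95% Poisson interval of the count. Blue points are scrambled (scr) and red points knockdown (KD) libraries. The 2 groups are apart for Peg10 and Peg3 but not for H19, and knockdown 1 holds the highest value of Peg10 and of H19.

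*Peg10* (chr6:4747306-4760517, plus strand, protein coding) was the member with the most reads, 349 in all. Scrambled 1 and 2 held 63 and 73 reads, and knockdown 1 and 2 held 144 and 69 reads. On the CPM scale this was 45.4 and 43.5 CPM in the scrambled libraries and 105 and 56.1 CPM in the knockdown libraries. Both knockdown libraries were above both scrambled libraries, but knockdown 1 stood well above all others. The Poisson interval of knockdown 2 (43.7 to 71.0 CPM) overlapped those of scrambled 1 (34.9 to 58.1 CPM) and scrambled 2 (34.1 to 54.7 CPM). The mean normalized count rose from 63.7 ± 3.24 (SD, n = 2) to 112 ± 44.4 (SD, n = 2). The log2 fold change was 0.83 ± 0.23 (SE), a fold of 1.78, with an adjusted p of 0.0369 in edgeR. Without knockdown 1 it was 0.34, with an adjusted p of 0.499 in edgeR, and without knockdown 2 it was 1.17. DESeq2, run in 4 configurations, gave adjusted p-values of 0.159 to 0.508.

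*Peg10* lies on chromosome 6, where 330 of 404 tested genes had a log2 fold change above 0 and 74 below, and the median was 0.28. Over all genes tested the median was -0.00. On this chromosome 26 genes were called higher and 5 lower. With the median of each chromosome removed, the log2 fold change of *Peg10* was 0.56 and its adjusted p 0.248 in edgeR. By log2 fold change, *Peg10* ranked 33 from the highest among the 404 tested genes of chromosome 6 and 274 among all 8670.

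*Sgce*, which encodes the membrane protein epsilon-sarcoglycan and is paternally expressed from the other side of the shared interval, gave the closest comparison within the cluster. It held 59 and 75 reads in the scrambled libraries and 66 and 67 in the knockdown libraries, 42.5 and 44.7 CPM against 48.0 and 54.5 CPM. The knockdown libraries were above the scrambled ones by less than for *Peg10*, and the log2 fold change was 0.20 ± 0.20 (SE; adjusted p = 0.618, edgeR). With the chromosome medians removed it was -0.08. The ratio of *Peg10* reads to *Sgce* reads was 1.07 and 0.973 in the scrambled libraries, 2.18 in knockdown 1 and 1.03 in knockdown 2. On the log2 scale, with 0.5 added to each count, the scrambled libraries averaged 0.03 ± 0.09 (SD, n = 2) and the knockdown libraries 0.58 ± 0.76 (SD, n = 2). The difference of 0.55 had a two-sided p of 0.667 in the exact permutation test, in which 2 against 2 libraries can give no p below 0.33. Without knockdown 1 the difference was 0.01. Only knockdown 1 had a ratio apart from those of the other libraries.

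**Figure D3:**
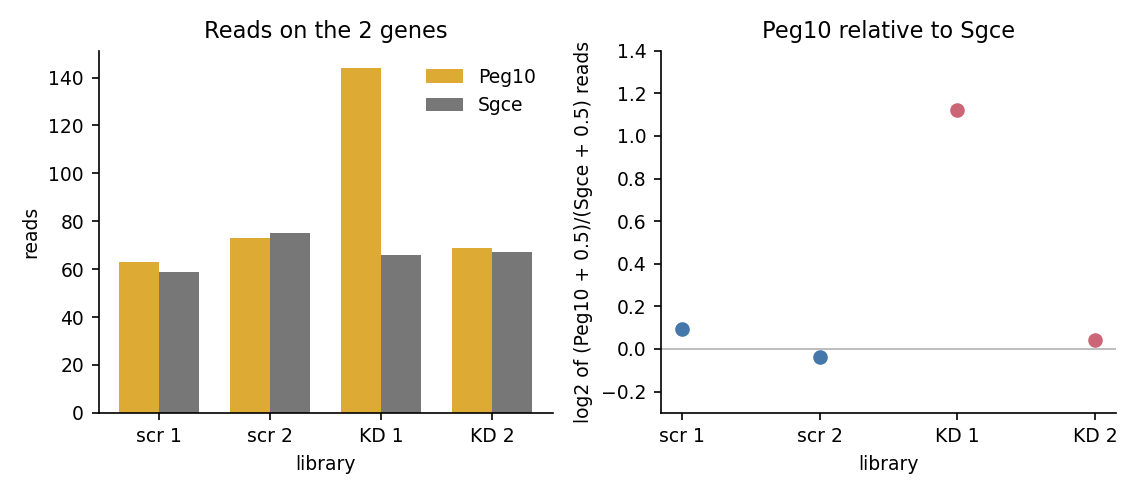
Reads of Peg10 (yellow bars) and Sgce (grey bars) in each library (left, y axis in reads) and the log2 ratio of the 2 counts with 0.5 added to each (right), in scrambled (scr, blue) and knockdown (KD, red) libraries. The ratio is near 1 to 1 in 3 libraries and 2.18 in knockdown 1.

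Of 8 listed genes around *Peg10*, 6 had reads and 4 were tested, with none called. Besides *Sgce* these were *Casd1*, a sialic acid acetyltransferase gene (log2 fold change 0.26, or -0.02 with chromosome medians removed, adjusted p = 0.679 and 0.989), and the paraoxonase genes *Pon2* (0.03, or -0.25, adjusted p = 0.959 and 0.656) and *Pon3* (-0.52, or -0.79, adjusted p = 0.623 and 0.556), all in edgeR. *Pon3* held 11, 17, 15 and 2 reads in scrambled 1 and 2 and knockdown 1 and 2, so that only knockdown 2 was low. *Calcr* and *Tfpi2* had 0 reads, and *Ppp1r9a* and *Asb4* had 1 and 7 reads over all libraries. Of the 10 genes tested whose left end lies within 2 Mb of that of *Peg10*, listed or not, 1 was called, and it was lower. This was the collagen gene *Col1a2* (log2 fold change -1.37, adjusted p = 0.000182), named here after its value was seen. Without knockdown 1 its log2 fold change was -1.55 and the call was lost, as were most calls of the series in that fit.

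*Peg3* (chr7:6706882-6733468, minus strand, protein coding) held 20 reads in scrambled 1 and 44 in scrambled 2, against 6 in knockdown 1 and 4 in knockdown 2. This was 14.4 and 26.2 CPM against 4.36 and 3.25 CPM. Both knockdown libraries were below both scrambled libraries, and the highest knockdown interval (1.60 to 9.50 CPM, 95% Poisson) slightly overlapped the interval of scrambled 1 (8.80 to 22.3 CPM). Groups did not overlap for 2 of 3 tested members, where they did not for 52.4% of all genes tested. The mean normalized count fell from 29.0 ± 11.4 (SD, n = 2) to 5.33 ± 0.918 (SD, n = 2). The log2 fold change was -2.43 ± 0.46 (SE), a fold of 0.185, with an adjusted p of 0.0033 in edgeR. It ranked 28 from the lowest among the 8670 genes tested.

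*Peg3* was lower in every alternative that tested it, with log2 fold changes from -2.45 to -2.37 with all 4 libraries. DESeq2 gave adjusted p-values of 0.0192 and 0.0137 with a local dispersion fit and of 0.0993 and 0.0917 with a parametric fit. Leaving out 1 library at a time moved it between -2.76 and -1.94. Without knockdown 1 the log2 fold change was -2.63 and the call was lost, as were most calls of the series in that fit. Without scrambled 2 it was -1.94, and the call was lost because the mean normalized count was no longer over 10. Removing chromosome medians left *Peg3* called, at -2.37, since the median of chromosome 7 was -0.07.

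The genes that share the *Peg3* cluster could not be compared with it. *Usp29*, a ubiquitin protease gene that starts from the other side of the interval printed above, had 1 read in each scrambled library and 0 in each knockdown library, which is below the limit of 3 reads that a count of 0 allows. The zinc finger genes *Zim1*, *Zfp264* and *Zim3* had 0 reads in all libraries. Of 14 tested genes within 2 Mb of *Peg3*, 1 was called. This was *Il11*, a cytokine gene with 112 and 98 reads in scrambled and 0 and 3 in knockdown libraries, named after its value was seen. Its log2 fold change was -5.83 (adjusted p = 4.82e-07), or -4.77 without knockdown 1 and -9.70 without knockdown 2. The last value stands on a knockdown group with 0 reads, so that its size is set by the fit. *Il11* and *Peg3* had the lowest log2 fold changes among the 566 tested genes of chromosome 7. The median over the 14 nearby genes was -0.12.

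**Figure D4:**
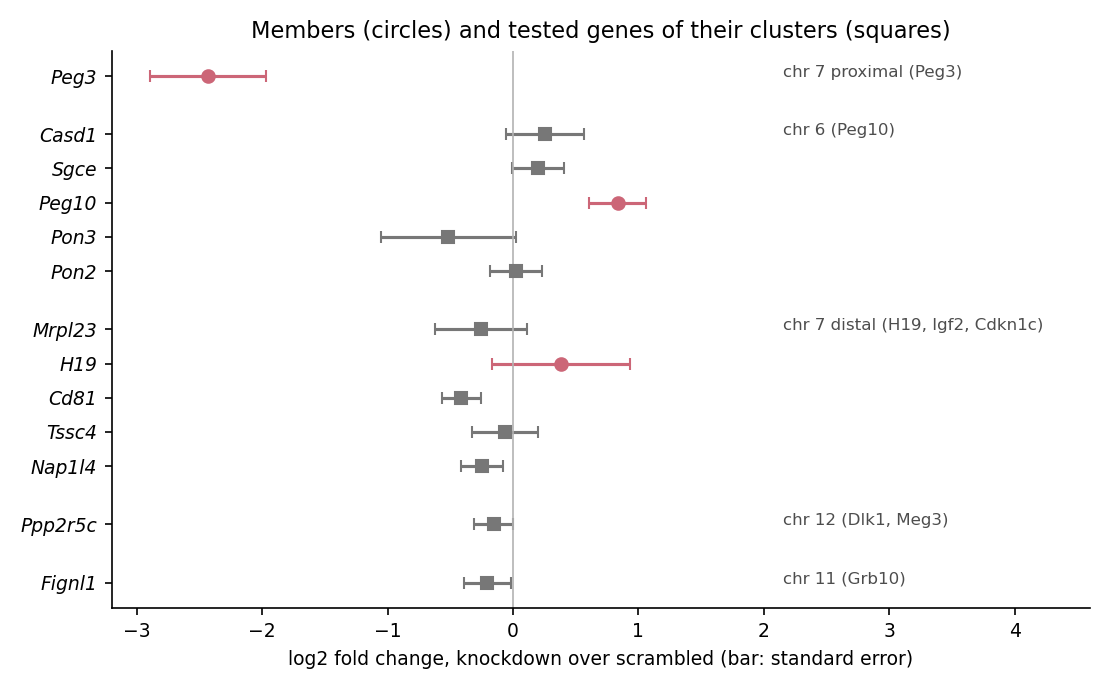
Log2 fold change, knockdown over scrambled (x axis), of tested members (red circles) and of tested genes listed for the same cluster (grey squares), with the standard error as bars, grouped by cluster. Peg3 at -2.43 and Peg10 at 0.83 lie apart from 0, and the 10 tested cluster genes lie between -0.52 and 0.26.

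*H19* (chr7:142129262-142133957, minus strand, noncoding) held 8 reads in scrambled 1 and 13 in scrambled 2, against 21 in knockdown 1 and 3 in knockdown 2. This was 5.77 and 7.75 CPM against 15.3 and 2.44 CPM. Knockdown 1 was the highest and knockdown 2 the lowest of the libraries, so that the scrambled libraries lay between the 2 knockdown libraries. The mean normalized count of the scrambled libraries was 9.66 ± 1.81 (SD, n = 2) and that of the knockdown libraries 12.2 ± 12.3 (SD, n = 2). The log2 fold change was 0.38 ± 0.55 (SE; adjusted p = 0.737, edgeR), with a 95% interval of -0.70 to 1.47. The sign followed the knockdown library used, at -1.45 without knockdown 1 and 1.09 without knockdown 2. The Poisson intervals of the 2 knockdown libraries (9.46 to 23.4 CPM and 0.503 to 7.13 CPM) did not overlap. These libraries were set side by side after their values were seen, and why they differ was not tested.

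*Igf2* (chr7:142204503-142220694, minus strand) had 0 reads in all 4 libraries, so that the ratio of *H19* to *Igf2* reads could not be formed. A count of 0 allows up to 3 reads, or 1.79 to 2.44 CPM in a single library and 0.979 and 1.15 CPM over the scrambled and knockdown groups. These limits cover counting error only and do not cover reads set aside as ambiguous, which for *Igf2* could be all of its reads. *Ins2* and *Igf2os*, which neighbour *Igf2*, also had 0 reads. *Mrpl23*, a mitochondrial ribosomal protein gene on the other side of *H19*, had 16 and 27 reads in the scrambled and 14 and 17 in the knockdown libraries (log2 fold change -0.25, adjusted p = 0.738, edgeR). Its log2 fold change was -0.0069 without scrambled 2, -0.0101 without knockdown 1 and -0.51 without knockdown 2.

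*Cdkn1c* (chr7:143012069-143014806, minus strand), in the same chromosome region, had 0 reads in all 4 libraries, and its transcripts touch only their own gene when strand is used. Of the 13 genes listed for distal chromosome 7, 6 had reads and 4 were tested. All 4 had a log2 fold change below 0 and none was called. The imprinted genes *Osbpl5* and *Tnfrsf23*, 0.23 and 0.21 Mb from *Cdkn1c* but kept in the list of other imprinted genes, were above 0 (0.21 and 0.24, adjusted p = 0.711 and 0.490). *Cars1* and *Tnfrsf22*, in no list but nearer to *Cdkn1c* (0.095 and 0.18 Mb), were below 0 (-0.40 and -0.53, adjusted p = 0.218 and 0.269 in edgeR). *Cd81*, a tetraspanin gene, held 358 and 532 reads in the scrambled and 348 and 232 in the knockdown libraries (log2 fold change -0.41, adjusted p = 0.124). *Nap1l4*, a nucleosome assembly gene, had a log2 fold change of -0.25 (adjusted p = 0.419), and *Tssc4* of -0.07 (adjusted p = 0.916), or 0.00 with chromosome medians removed. *Kcnq1ot1*, the noncoding RNA that silences this domain on the paternal copy, had 0 and 1 reads in the scrambled and 3 and 1 in the knockdown libraries, which was too few to test. *Ascl2*, *Kcnq1*, *Slc22a18* and *Phlda2* had 0 reads. Of the 43 tested genes within 2 Mb of *H19*, 0 were called by edgeR or in the 4 DESeq2 configurations, and 7 had an unadjusted p under 0.05. Of the 30 within 2 Mb of *Cdkn1c*, 0 were called by either tool, and 5 had an unadjusted p under 0.05. *Nadsyn1*, within both windows and named after its value was seen, held 3 and 7 reads in scrambled and 15 and 13 in knockdown libraries (log2 fold change 1.67, adjusted p = 0.0497). Its mean normalized count of 9.79 was under the limit for a call, and the adjusted p was above 0.05 in all alternatives that gave one but the fit with no filter (0.0315), at 0.067 with the replicate block.

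**Figure D5:**
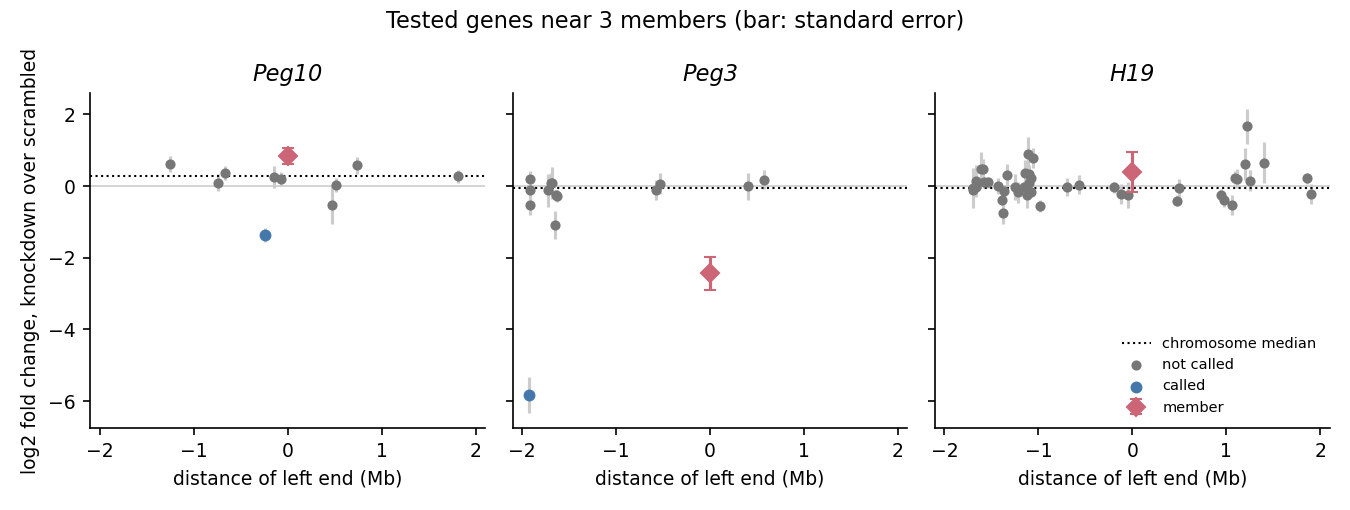
Log2 fold change, knockdown over scrambled (y axis), of tested genes within 2 Mb of Peg10, Peg3 and H19, by the distance between the left ends of the genes in Mb (x axis), with the standard error as bars and the chromosome median as a dotted line. Diamonds are the members, grey points genes that were not called and blue points called genes. The blue point near Peg10 is Col1a2 at -1.37, the one near Peg3 is Il11 at -5.83, and no gene near H19 is called.

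On chromosome 12, *Dlk1* (chr12:109418749-109429262), *Meg3* (chr12:109506877-109538165) and *Rian* (chr12:109570242-109628150) had 0 reads, and *Mirg* (chr12:109696198-109715898) had 1. All are on the plus strand. The ratio of the noncoding RNAs to *Dlk1* could therefore not be formed. For *Dlk1*, whose transcripts touch only their own gene, the limit for a count of 0 over a group was 0.979 CPM in scrambled and 1.15 CPM in knockdown. *Rtl1*, *Dio3*, *Dio3os* and *Begain* of the same chromosome region also had 0 reads. *Wdr25* held 3, 4, 4 and 4 reads, and *Ppp2r5c*, a phosphatase subunit gene beyond the cluster, was the only tested gene of the list (log2 fold change -0.15, adjusted p = 0.612, edgeR). Of the 18 to 23 tested genes within 2 Mb of these members, 2 were called by edgeR and 0 in the 4 DESeq2 configurations. These were *Tnfaip2* (log2 fold change 0.64, adjusted p = 0.0465) and the ribosomal protein pseudogene *Rps19-ps6* (-0.77, adjusted p = 0.0269), named after their values were seen. *Tnfaip2* was not called without scrambled 1, knockdown 1 or knockdown 2 (0.41 to 0.84), with RLE factors (adjusted p = 0.0513) or with chromosome medians removed (0.0519). *Rps19-ps6* was not called without scrambled 1 or knockdown 1 (-0.53 and -0.42) or with the robust quasi-likelihood fit (adjusted p = 0.201). The cluster was thus nearly without counted reads in both groups, while *Ppp2r5c* next to it held 135 to 196 reads per library.

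*Grb10* (chr11:11880498-11988683, minus strand) had 0 reads in all 4 libraries. Of 4 listed neighbours, *Fignl1*, a gene of DNA repair, was tested (87 and 112 reads against 89 and 61, log2 fold change -0.21, adjusted p = 0.562, edgeR). *Cobl*, an actin nucleator gene, held 8 and 9 reads in scrambled and 3 and 2 in knockdown libraries and did not pass the filter, *Ddc* held 2 reads in all, and *Ikzf1* had 0. A count of 0 is common in these files. Of all gene IDs 70.5% had 0 reads in all libraries, 41.6% of the protein-coding and 81.1% of the long noncoding ones, against 4 of 6 protein-coding members, 2 of 4 noncoding members and 6 of 10 members in all.

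Over the 5 clusters, 35 neighbours were listed, 18 had reads and 10 were tested. None was called by edgeR or in any of the 4 DESeq2 configurations, and 1, *Cd81*, had an unadjusted p under 0.05. The median log2 fold change of the 10 was -0.18, or -0.11 over 12 genes with *Osbpl5* and *Tnfrsf23* included, beside -0.00 over all genes tested. *Cars1* and *Tnfrsf22*, below 0 and nearer to *Cdkn1c* than that pair, are in neither median.

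A list of 33 other imprinted genes, *Osbpl5* and *Tnfrsf23* near *Cdkn1c* among them, had 31 members in the files, 23 with reads and 13 tested, of which 9 were above and 4 below 0 with a median of 0.12 (0.02 without that pair). Whether the listed genes are imprinted in these myoblasts was not measured. Of the 13, 1 was called. This was *Gatm*, which encodes an enzyme of creatine synthesis, with 132 and 140 reads in scrambled and 68 and 58 in knockdown libraries. Both knockdown libraries were below both scrambled ones, where groups did not overlap for 52.4% of all genes tested. The log2 fold change was -0.91 ± 0.18 (SE), with an adjusted p of 0.00476 in edgeR. *Gatm* was not called with parametric DESeq2 fits (adjusted p = 0.162 and 0.166) or without knockdown 1. *Peg12*, a paternally expressed gene of the Prader-Willi region, held 2 and 5 reads in scrambled and 10 and 15 in knockdown libraries (log2 fold change 2.01 ± 0.56 (SE), adjusted p = 0.0392). Its mean normalized count of 8.45 was under the limit for a call. The adjusted p was also above 0.05 with parametric DESeq2 fits (0.640 and 0.654) and without scrambled 1 (0.145), knockdown 1 (0.149) or knockdown 2 (0.222). Its cluster neighbours *Ndn* and *Magel2* had 0 reads, and *Mkrn3* had 1, 0, 2 and 0 reads. *Igf2r*, the imprinted receptor that removes IGF2 from the cell surface, held 22, 19, 16 and 20 reads, and its antisense RNA *Airn* 4, 4, 4 and 5.

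The genes of the IGF axis, through which *Igf2* and *Grb10* act, were described from a list of 14. The list also held *Igf2bp1*, *Igf2bp2* and *Igf2bp3*, which encode RNA-binding proteins rather than parts of the signalling pathway. All 14 had reads and 8 were tested, 5 above and 3 below 0, with a median of 0.10. None was called by edgeR or in any of the 4 DESeq2 configurations, and 1 had an unadjusted p under 0.05. This was the receptor gene *Igf1r*, with 25 and 34 reads in scrambled and 49 and 31 in knockdown libraries. By CPM both knockdown libraries were above both scrambled ones (25.2 and 35.6 against 18.0 and 20.3), where groups did not overlap for 52.4% of all genes tested. The log2 fold change was 0.64 ± 0.28 (SE), with an adjusted p of 0.192 in edgeR. It was 0.39 without knockdown 1 and 0.83 without knockdown 2. The adaptor gene *Irs2* had a log2 fold change of 0.44 (adjusted p = 0.416).

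Of 12 genes that set or maintain imprints, 11 had reads and 9 were tested, 5 above and 4 below 0, with a median of 0.13 and none called by edgeR or in the 4 DESeq2 configurations. *Ezh2*, the histone H3 lysine 27 methyltransferase gene, had the smallest unadjusted p of the list and the only one under 0.05 (log2 fold change 0.41, adjusted p = 0.184). It also lies on chromosome 6, and with the chromosome medians removed its log2 fold change was 0.13. *Dnmt1*, which encodes the maintenance DNA methyltransferase, had a log2 fold change of -0.38 (adjusted p = 0.243), or -0.02 with chromosome medians removed (adjusted p = 0.985).

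The genes most like the called members across the 4 libraries were found by the Euclidean distance between log2 CPM values centred on each gene's mean. For *Peg3* these were *Apol10b* (29 and 48 reads in scrambled, 9 and 6 in knockdown libraries, distance 0.30) and *Insyn1* (71 and 115 against 20 and 17, distance 0.34). For *Peg10* these were *Dna2* (10 and 12 against 26 and 12, distance 0.06) and *D5Ertd579e* (17 and 19 against 39 and 21, distance 0.15). Knockdown 1 was the highest library in both, which follows from how they were chosen. The adjusted p in edgeR was 0.00222 for *Apol10b*, 6.58e-05 for *Insyn1*, 0.176 for *Dna2* and 0.115 for *D5Ertd579e*. With 4 libraries, many genes can have a similar pattern, and how many do was not counted.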

How the data were processed

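Total RNA of 4 libraries was read by direct RNA sequencing. Per the labels, the authors used minimap2 2.17 against the GRCm39 genome and assigned reads to genes in HTSeq 0.9.1. The deposited files hold whole read counts for 56748 gene IDs, of which 56017 were found in GENCODE vM39, which gave symbols and positions. Exons of the other IDs could not be placed. Counted reads were 56.5% to 57.8% of all reads, and 22.7% to 23.8% were set aside for low mapping quality. Reads without a gene were left out of library sizes.

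Counts were compared with edgeR 4.0.16 in R 4.3.3 (TMM normalization, filterByExpr, quasi-likelihood test, Benjamini-Hochberg adjustment), with DESeq2 1.42.0 and other settings as alternatives, all fitted to all genes. The edgeR test was also run on counts simulated from its own fitted dispersions. These held no chromosome-wide shifts and no outlying library, so that they do not show how the test behaves on the present data. Normalized counts were divided by each library's effective size and scaled to the mean library. The Peg10 to Sgce ratio was tested by an exact permutation test (scipy 1.17.1). Annotated transcripts were mapped with minimap2 2.31-r1302 at a minimum mapping quality of 10. Intervals of counts are 95% Poisson intervals and cover counting error only.

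The replicate number is also the batch of the labels and pairs the libraries. Deviations from the group means correlated between same-numbered libraries at r = 0.00613 over 4503 genes with a mean count of at least 50. Members and lists were chosen with earlier results of these data known. Named were all members, *Hnrnpl*, listed genes other than markers with an adjusted p under 0.05, all tested neighbours, the 2 genes of each further list with the smallest p, and the 2 genes nearest each called member.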

Additional observations from a re-analysis of the deposited data

How the results depend on the processing

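The edgeR test called 481 genes and 2 members. DESeq2 called 229 and 113 genes with the Wald test (local and parametric fit) and 228 and 113 with the likelihood ratio test, and members called were 1 with a local fit (*Peg3*) and 0 with a parametric fit in both tests. With chromosome medians removed 285 genes and 1 member (*Peg3*) were called. With at least 10 counts in every library *Peg3* was not tested, and 1 member was called. Leaving out 1 library at a time gave 20 to 444 genes and 0 to 2 members, lowest without knockdown 1 for both. With the replicate block 484 genes and 2 members were called, and the block changed no call of a member, neighbour or *Hnrnpl*, but ended that of *Des* (adjusted p = 0.0526). The other factors, filters and fits kept both members called.

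Values that turned direction were those of *H19* (-1.45 without knockdown 1), of *Tssc4* (0.0016), *Sgce* (-0.0781), *Casd1* (-0.0177) and *Pon2* (-0.25) with chromosome medians removed, of *Pon2* without scrambled 2 (-0.13) or without knockdown 1 (-0.08) of *Osbpl5* without scrambled 1 (-0.0052) or without knockdown 1 (-0.0892), and of *Pon3* (0.20) without knockdown 2 (leave-one-out ranges -0.13 to 0.17 for *Pon2*, -0.09 to 0.49 for *Osbpl5* and -2.42 to 0.20 for *Pon3*), none of them past the threshold, and the cause was not tested. The difference in log2 ratio of *Peg10* to *Sgce* was 0.01 to 1.09 with 1 library left out. With 1 library left out, log2 fold changes were 0.07 to 0.32 for *Sgce*, -0.61 to -0.25 for *Cd81*, -0.38 to -0.06 for *Fignl1*, 0.22 to 0.64 for *Irs2* and -0.55 to -0.20 for *Dnmt1*, none of them called. *Gatm* was not called with a parametric DESeq2 fit or without knockdown 1. The planned ratios of *H19* to *Igf2* and of *Meg3*, *Rian* and *Mirg* to *Dlk1* could not be formed, as *Igf2* and *Dlk1* had 0 reads, so no alternative was run on them. *Peg3* and *H19* had 3 to 44 reads a library, and the other members but *Peg10* at most 1.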
